A study of Mus musculus with 8 samples.

Results

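The genes described here are 10 genes of endothelial activation, adhesion and angiopoietin signaling: *Sele*, *Selp*, *Icam1*, *Vcam1*, *Angpt2*, *Tek*, *Vwf*, *Pecam1*, *Nos3* and *Kdr*. They were chosen by name, and all 10 were found among the 23282 rows of the count files. The rows of 6 of them lay among their genomic neighbours, and only these 6 (*Angpt2*, *Tek*, *Kdr*, *Nos3*, *Vwf* and *Pecam1*) are compared between groups. All 6 passed the filter on low counts. The rows of the other 4, which are the leukocyte adhesion molecules *Sele*, *Selp*, *Icam1* and *Vcam1*, lay among genes of other chromosomes, and they are given as counts only.

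The study asked how the liver transcriptome changed in endotoxemia and how LGK974, an inhibitor of the acyltransferase porcupine that Wnt ligands need for secretion, altered it. All groups were C57BL/6 mice of 4 weeks that the labels describe as male. The control group received saline. The endotoxemic group received lipopolysaccharide (LPS, the endotoxin of gram-negative bacteria) at 25 mg/kg. The label of the LGK974 group names only that compound. By its published description, this group received LGK974 at 60 mg/kg and LPS at 25 mg/kg. In most experiments of the study LGK974 was injected 2 h before LPS, and livers were collected 6 h after LPS. The endotoxemic group is called LPS alone where values are listed. Whole liver was sequenced, so that endothelial cells contributed only part of the RNA of each library.

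Of 8 libraries, endotoxemic libraries 3 and 4 held the same count as libraries 1 and 2 on every row and were counted once, so that each group had 2 distinct libraries. Total counts ranged from 9142116 to 15222439 per library. The labels do not state that the libraries of a group came from separate mice, and p-values then measure only the spread between these libraries, which may be technical. Hepatocyte markers, which check the labelled tissue, summed to 121400 and 91170 CPM with saline, 52660 and 36530 CPM with LPS alone and 41810 and 37650 CPM with LGK974, and the part of this fall in the results below was not tested. The sex-linked genes of the control and endotoxemic libraries went against the label male, whereas those of the LGK974 libraries did not. *Xist*, which is transcribed from the inactive X chromosome of females, had 3 and 7 counts in the LGK974 libraries but between 1171 and 3115 in the other 4. The Y-linked gene *Ddx3y* had 0 counts in each control and endotoxemic library and 1755 and 1392 in the LGK974 libraries. In every comparison with the LGK974 group, the treatment and this difference cannot be told apart.

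The order of the rows bore on every comparison with the control group. Most rows followed the order of the genes along the genome, but 834 of 23131 rows with a known position did not lie near their genomic neighbours. Across the 22297 rows that did, the counts of control and endotoxemic libraries had a Spearman rho of 0.931. Across 567 rows that neither did so nor stood in the longest genomic order, it was 0.297, whereas endotoxemic and LGK974 libraries had a rho of 0.965 in both sets. These correlations run across genes, which are not independent replicates. A count of an out-of-order row is therefore given below with its symbol as deposited, and no fold change was taken from it.

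Endothelial cells line the blood vessels and, in the liver, the sinusoids. When they are activated by endotoxin or cytokines, they display selectins, on which leukocytes roll, and immunoglobulin-like adhesion molecules such as ICAM-1 and VCAM-1, to which leukocyte integrins bind. They also release the contents of their Weibel-Palade bodies, among them von Willebrand factor, P-selectin and angiopoietin-2. Angiopoietin-1 keeps the receptor Tie2 (*Tek*) active in quiescent vessels, and angiopoietin-2 can act as its antagonist. Kdr is the main signaling receptor for vascular endothelial growth factor (VEGF), and endothelial nitric oxide synthase (*Nos3*) makes the nitric oxide that relaxes the vessel.

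The promoter windows of *Tek* and *Kdr* are shown because these were the members that fell. They come from the RefSeq table of build GRCm38.p6, run from 250 bases before to 50 bases after the start of the gene, and are written on the strand of the gene. *Tek* lies at chr4:94739039-94739338 (plus strand) and *Kdr* at chr5:75978406-75978705 (minus strand). Capitals mark the core of the binding site of ETS factors (GGAA on either strand), a family that acts on many endothelial promoters.
Tek: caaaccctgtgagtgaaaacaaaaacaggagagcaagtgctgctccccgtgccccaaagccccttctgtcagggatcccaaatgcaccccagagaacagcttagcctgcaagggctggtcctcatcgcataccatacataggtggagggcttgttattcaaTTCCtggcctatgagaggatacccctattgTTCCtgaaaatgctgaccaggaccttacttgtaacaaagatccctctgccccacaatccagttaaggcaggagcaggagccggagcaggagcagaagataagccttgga
Kdr: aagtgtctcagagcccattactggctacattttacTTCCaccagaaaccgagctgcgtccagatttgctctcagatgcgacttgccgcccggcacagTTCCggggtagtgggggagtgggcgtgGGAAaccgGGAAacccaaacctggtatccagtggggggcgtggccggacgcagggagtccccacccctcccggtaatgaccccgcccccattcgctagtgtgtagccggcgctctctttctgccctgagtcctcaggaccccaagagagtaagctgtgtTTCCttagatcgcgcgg

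The *Kdr* window held 5 ETS cores and the *Tek* window 2, against a median of 3 in 32851 windows of the same length, of which 96.0% held at least 1. Matches were sought on both strands for 2 further motifs. The NF-κB consensus, taken as the exact string GGGRNWYYCC, was found once in the *Kdr* window, beginning 74 bases upstream of the start. It was not found in that of *Tek*. It occurred in 4.51% of all windows. The AP-1 motif (TGANTCA), which occurred in 7.81% of all windows, was in neither. Windows were also found for *Sele*, *Selp* and *Icam1*, none of which held an exact match to this NF-κB string, while *Sele* and *Selp* each held 1 AP-1 match. A match is a run of letters and does not show that a factor binds there. Sites that depart from the string were not sought, so the lack of a match does not show that a window has no NF-κB site.

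*Angpt2*, which encodes the antagonistic ligand of Tie2, rose in the endotoxemic group. The gene lies at chr8:18690263-18741562 on the minus strand (GRCm38). It had 7 and 6 counts with saline, 188 and 129 with LPS alone and 185 and 211 with LGK974. The control libraries were near the floor of 3 counts, and every library of the other groups lay far above them. Normalized for library size, the level was 0.521 ± 0.182 CPM (counts scaled to a common library size by TMM factors; SD, n = 2) with saline, 17.1 ± 4.78 CPM with LPS alone and 14.1 ± 0.222 CPM with LGK974. The log2 fold change between the endotoxemic and control groups was 5.06 (SE 0.41), a 33.3-fold difference, with an adjusted p of 2.1e-05, and it lay between 4.7 and 5.41 over all settings in which the gene was tested. This p and every adjusted p below come from edgeR's quasi-likelihood F test, adjusted by the Benjamini-Hochberg method, unless another test is named. The LGK974 group was 27.5-fold above the control group (log2 4.78, SE 0.41, adjusted p = 3.58e-05). Between the LGK974 and endotoxemic groups, the log2 fold change was −0.28 (95% interval −0.95 to 0.39, adjusted p = 0.619), and the libraries overlapped. The gene lies within *Mcph1*, which is on the opposite strand and whose counts went from 30 and 57 with saline to 5 and 6 with LPS alone, with 25 and 26 with LGK974.

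*Tek*, the gene of the receptor Tie2 (chr4:94739289-94874976, plus strand), fell in the endotoxemic group. It had 61 and 75 counts with saline, 0 in both libraries with LPS alone and 8 and 25 with LGK974. The 3 groups did not overlap. The mean level was 5.28 ± 0.537 CPM in the control group and 1.15 ± 0.769 CPM in the LGK974 group. Set against a floor of 3 counts per library, the endotoxemic group was at least 16.3-fold lower than the control group (adjusted p = 0.000861). In bulk liver, fewer endothelial cells and less RNA per endothelial cell cannot be told apart, which holds for every level given here.

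By the same floor, the mean of the LGK974 group in *Tek* was at least 3.55-fold higher than the endotoxemic group, with an adjusted p of 0.041. LGK974 replicate 1 alone was at least 1.87-fold higher and replicate 2 at least 5.23-fold higher. This was the only member called between those groups, and the call was not stable. *Tek* passed the filter on low counts through its control libraries and was not tested when only the LGK974 and endotoxemic libraries were used. It was lost without control replicate 1 (adjusted p = 0.0925), control replicate 2 (0.0922), endotoxemic replicate 1 (0.198), endotoxemic replicate 2 (0.216) or LGK974 replicate 2 (0.0557), with limma-voom (0.0598) and with a replicate block (0.061). The LGK974 group stayed 4.53-fold below the control group in *Tek* (log2 −2.18, SE 0.63, adjusted p = 0.0288). That call was lost without control replicate 1 (adjusted p = 0.144), control replicate 2 (0.108) or LGK974 replicate 1 (0.0656, log2 −1.63), and without LGK974 replicate 2 the log2 fold change was −3.1.

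Ligand and receptor therefore moved in opposite directions within the same libraries. The number of *Angpt2* counts per *Tek* count was 0.115 and 0.08 in the control libraries. With no *Tek* count, it was at least 62.7 and 43.0 in the endotoxemic libraries against the floor of 3 counts. It was 23.1 and 8.44 in the LGK974 libraries, which lay below both endotoxemic bounds and above both control values.

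**Figure D1:**
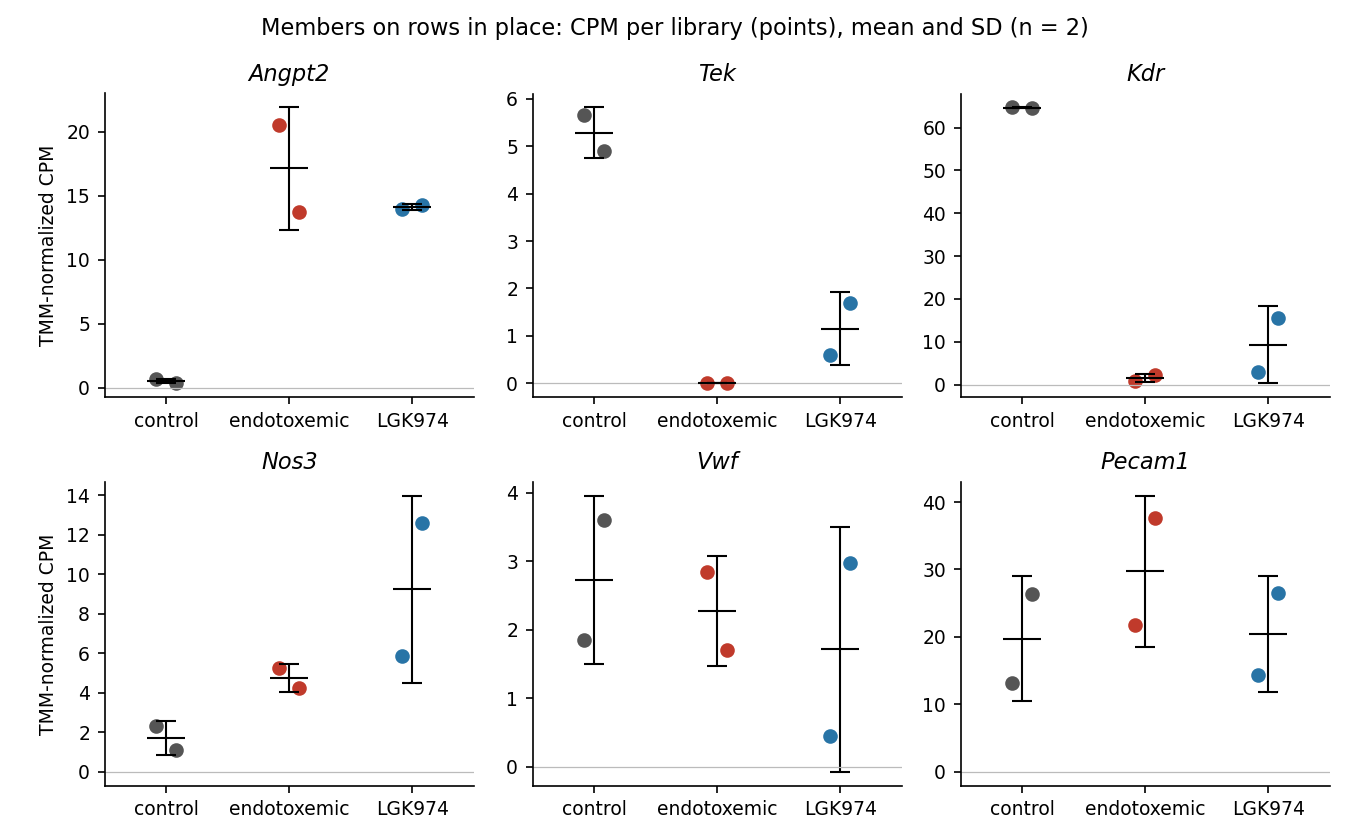
Normalized CPM of the 6 members whose rows lie among their genomic neighbours, on linear axes that differ between genes, with 1 point for each library and the mean and SD of each group (n = 2). *Angpt2* and *Nos3* were higher and *Tek* and *Kdr* lower in every endotoxemic and LGK974 library than in either control library, whereas the groups overlapped in *Vwf* and *Pecam1*.

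*Kdr*, the VEGF receptor (chr5:75932827-75978458, minus strand), fell in the endotoxemic group. It had the highest CPM of the 6 genes in the control group, on the scale of 3′-end counts, which does not depend on gene length. It had 697 and 988 counts with saline, 8 and 21 with LPS alone and 39 and 231 with LGK974. All 3 groups were apart, but the LGK974 libraries differed from each other by more than the endotoxemic libraries did. The level was 64.6 ± 0.0842 CPM with saline, 1.56 ± 0.966 CPM with LPS alone and 9.29 ± 8.97 CPM with LGK974. The endotoxemic group was 41.1-fold lower than the control group (log2 −5.36, SE 0.74, adjusted p = 0.000448), and the log2 fold change was −4.79 without endotoxemic replicate 1 and −6.19 without endotoxemic replicate 2.

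The LGK974 group was 6.91-fold below the control group in *Kdr* (log2 −2.79, SE 0.6, adjusted p = 0.00691). Its size rested on which LGK974 library was used, with a log2 fold change of −2.04 without LGK974 replicate 1 and −4.45 without LGK974 replicate 2. Between the LGK974 and endotoxemic groups, the log2 fold change was 2.57 (95% interval 0.92 to 4.23), with a p of 0.00656 in edgeR's quasi-likelihood F test before adjustment and 0.0758 after it, and so *Kdr* was not called. Without LGK974 replicate 1 the log2 fold change was 3.32 and was called (adjusted p = 2.63e-05), and without LGK974 replicate 2 it was 0.91 (adjusted p = 0.22). The neighbours of the *Kdr* row were less regular than those of the other 5. The row before it held *Tnfrsf21* of chromosome 17, *Pdgfra* lay 734.6 kb before it on chromosome 5 and *Srd5a3* lay 161.2 kb after it, and with a window of 500 kb the row would have been set aside.

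*Nos3*, endothelial nitric oxide synthase (chr5:24364810-24384474, plus strand), was higher in the endotoxemic than in the control group. It had 25 and 17 counts with saline, 48 and 40 with LPS alone and 78 and 186 with LGK974. The groups did not overlap, but the counts were low and the LGK974 libraries were far apart. The level was 1.72 ± 0.855 CPM, 4.75 ± 0.689 CPM and 9.24 ± 4.74 CPM in the control, endotoxemic and LGK974 groups. The endotoxemic group was 2.82-fold above the control group (log2 1.5, SE 0.53, adjusted p = 0.045). This call was lost without control replicate 2 (log2 1.03, adjusted p = 0.234), endotoxemic replicate 1 (1.39, 0.156) or endotoxemic replicate 2 (1.64, 0.101), with limma-voom (1.62, 0.0761) and with a replicate block (adjusted p = 0.0623).

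The LGK974 group was 5.49-fold above the control group in *Nos3* (log2 2.46, SE 0.52, adjusted p = 0.00595), and the call was lost without control replicate 2 (log2 1.99, adjusted p = 0.0558). The log2 fold change was 3.05 without control replicate 1 and 1.81 without LGK974 replicate 2. Against the endotoxemic group, LGK974 gave a log2 fold change of 0.96 (95% interval −0.12 to 2.04, adjusted p = 0.27), which was called without LGK974 replicate 1 (1.41, adjusted p = 0.039) and was 0.31 without LGK974 replicate 2 (adjusted p = 0.759). The last 294 bases of *Nos3* overlap the end of *Atg9b*, an autophagy gene on the opposite strand. Its counts followed those of *Nos3* in every library: 20 and 12 counts with saline, 44 and 36 with LPS alone and 66 and 164 with LGK974, which is between 70.6% and 91.7% of the *Nos3* count. The library method reads the 3′ end of transcripts, where these 2 genes overlap, and whether strand was used in counting is not given in the sources used here. The reads of *Nos3* and *Atg9b* therefore cannot be told apart.

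**Figure D2:**
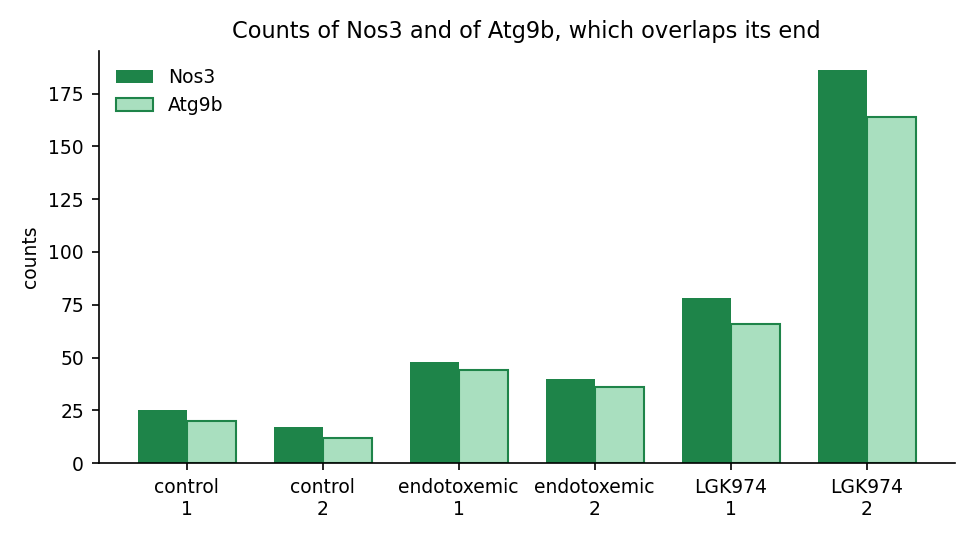
Counts of *Nos3* and of *Atg9b*, which overlap at their 3′ ends on opposite strands, as a pair of bars for each of the 6 libraries. The *Atg9b* count stayed between 70.6% and 91.7% of the *Nos3* count, and LGK974 replicate 2 had the most counts of both genes.

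*Vwf*, the platelet-binding glycoprotein of the vessel wall (chr6:125546774-125686679, plus strand), was not called in any comparison. It had 20 and 55 counts with saline, 26 and 16 with LPS alone and 6 and 44 with LGK974, and all 3 groups overlapped. The log2 fold change between the endotoxemic and control groups was −0.28 (95% interval −2.06 to 1.5, adjusted p = 0.8). That interval holds changes of up to several-fold in either direction, so the level cannot be called stable. The LGK974 group differed from the endotoxemic group by −0.39 (95% interval −2.2 to 1.42) and from the control group by −0.67 (95% interval −2.43 to 1.1). Without LGK974 replicate 2 the last of these was −2.58 and was called (adjusted p = 0.0295).

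*Pecam1*, a junctional adhesion molecule of endothelial cells that platelets and leukocytes also carry (chr11:106654217-106750628, minus strand), was likewise not called. It had 142 and 403 counts with saline, 200 and 353 with LPS alone and 191 and 392 with LGK974. Within each group the second library had the higher count, also after normalization, and the groups overlapped. The level was 19.8 ± 9.3 CPM, 29.7 ± 11.2 CPM and 20.5 ± 8.56 CPM in the control, endotoxemic and LGK974 groups. The log2 fold changes were 0.58 (95% interval −0.35 to 1.51) for the endotoxemic against the control group, −0.54 (−1.47 to 0.39) for the LGK974 against the endotoxemic group and 0.05 (−0.88 to 0.97) for the LGK974 against the control group. With a replicate block, the first of these was 0.62 and was called (adjusted p = 0.0429). Leaving out 1 library, it ranged from 0.14 without endotoxemic replicate 2 to 1.18 without control replicate 2, and it was not called.

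Of the 6 members, 2 were called higher and 2 lower in the endotoxemic than in the control group, where 20.4% of the 12701 rows tested were called higher and 23.0% lower. Their median log2 fold change was 0.15, against 0.01 over all rows tested. For LGK974 against LPS alone, 1 was called higher and 0 lower, against 2.80% and 2.82% of all rows. At an unadjusted p under 0.05, 2 of the 6 were past the threshold there, as were 22.9% of all rows. For LGK974 against saline, 2 were called higher and 2 lower, against 16.4% and 17.7% of all rows. The same 4 genes, *Angpt2*, *Nos3*, *Tek* and *Kdr*, were called in the same direction in both comparisons with the control group, which share the control libraries. The medians were 0.34 for LGK974 against LPS alone and −0.31 for LGK974 against saline, where those of all rows were 0.03 and 0.02.

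**Figure D3:**
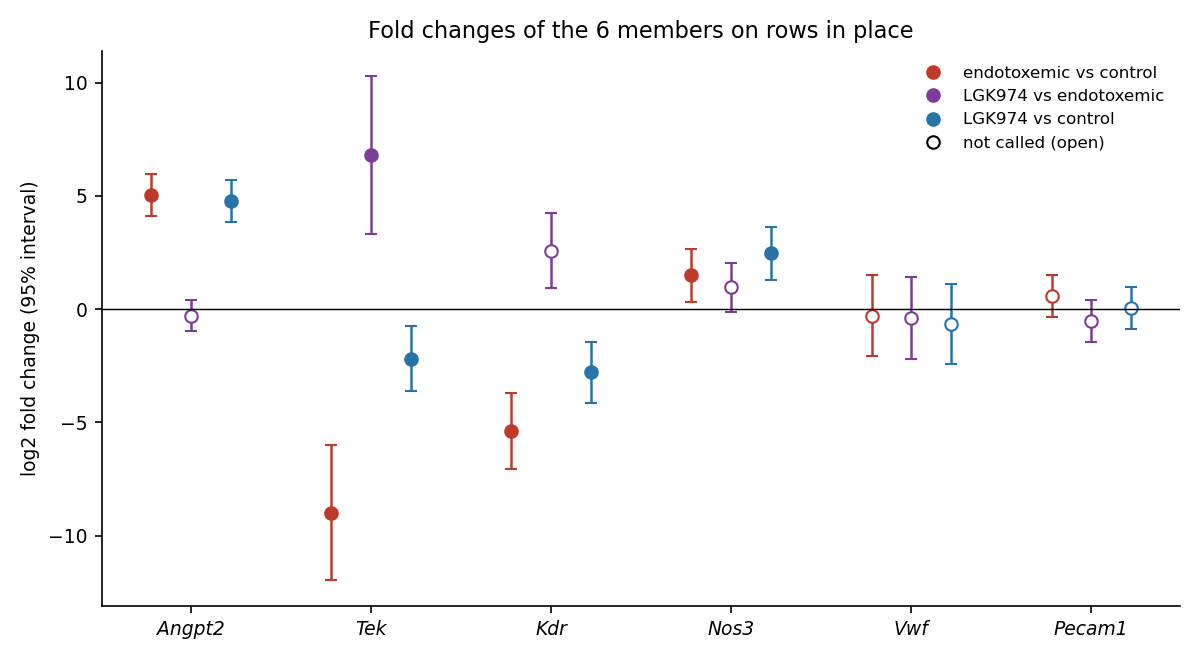
The log2 fold change of the 6 members in the 3 comparisons, with 95% intervals from edgeR's quasi-likelihood F test. *Angpt2* lay far above and *Tek* and *Kdr* far below 0 against the control group, and the intervals of *Vwf* and *Pecam1* crossed 0 in every comparison. Filled points were called and open points were not. The fitted *Tek* values of the comparisons with the endotoxemic group rest on libraries with 0 counts and are not bounds.

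The 4 adhesion molecules gave the following counts under their own symbols. *Sele*, E-selectin (chr1:164048234-164057677, plus strand), had 4 and 10 counts with LPS alone and 0 in each of the other 4 libraries, and its row stood between *Ido2* and *Adam18* of chromosome 8. *Selp*, P-selectin (chr1:164115264-164150026, plus strand), had 4 and 17 counts with saline and 0 in each library of the other groups, and its row stood between *Zc3h18* of chromosome 8 and *Tnf* of chromosome 17.

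*Icam1* (chr9:21015985-21028817, plus strand) had 67 and 98 counts with saline, 182 and 298 with LPS alone and 121 and 64 with LGK974, from a row between *Fam149a* and *Sorbs2* of chromosome 8. *Vcam1* (chr3:116109949-116129688, minus strand) had 143 and 235 counts with saline, 3 and 7 with LPS alone and 8 and 13 with LGK974, from a row between *Gm10445* and *Exoc6b* of chromosome 6. None of these 4 rows can be read as a change of the named gene.

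At the genomic place of each of the 4 genes stood exactly 1 out-of-order row, under another symbol. Between *Mrpl4* and *Icam4*, where *Icam1* lies, the row was labelled *Cxcl11*, and it had 20 and 16 counts with saline, 1175 and 1364 with LPS alone and 933 and 449 with LGK974. At the place of *Vcam1* the row labelled *Lyn* had 292 and 507, 623 and 628, and 290 and 189 counts in the same order. At the place of *Sele* the row labelled *Ccl21a* had 21 and 47, 15 and 15, and 9 and 6 counts. At the place of *Selp* the row labelled *Pparg* had 140 and 145, 242 and 372, and 262 and 490 counts. These values are given by symbol and by place. Which of them belong to the 4 adhesion molecules in which libraries was not tested here.

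**Figure D4:**
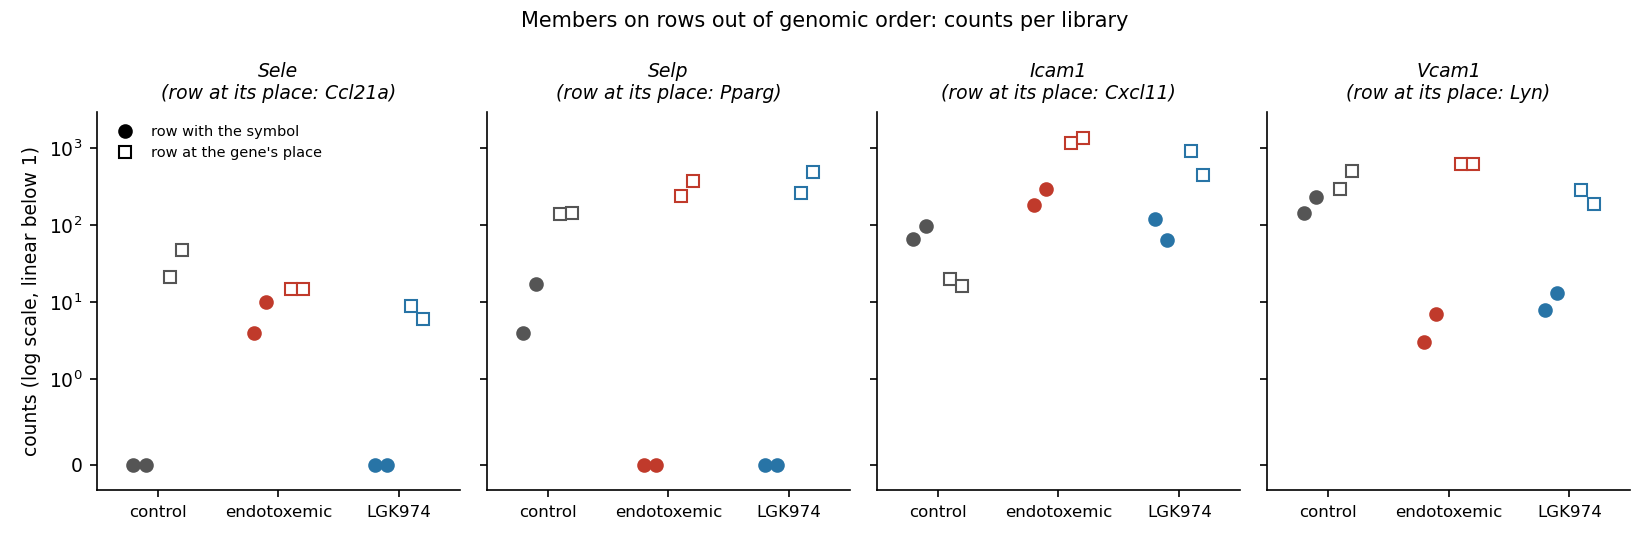
Counts of the 4 adhesion molecules in each library on a log axis (linear below 1), with filled circles for the row that carries the symbol and open squares for the out-of-order row at the genomic place of the gene. The *Icam1* row and the row at its place were below 100 counts in the control libraries, and the row at its place reached 1175 and 1364 in the endotoxemic libraries.

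The wider pathways of the members were read from lists of genes, counting only listed genes whose rows lay among their neighbours and in genomic order. The lists leave out the 10 members, so that *Angpt2* and *Tek* are not counted here. In the angiopoietin-Tie list, 0 of 9 other tested genes were called higher and 5 lower in the endotoxemic than in the control group, with a median log2 fold change of −1.43. Of all rows, 20.4% were called higher and 23.0% lower, with a median of 0.01. *Ptprb*, the endothelial phosphatase that restrains Tie2, was among the 5 genes of the list called lower. It had 814 and 1211 counts with saline, 62 and 61 with LPS alone and 150 and 315 with LGK974, a log2 fold change of −3.54 (SE 0.32, adjusted p = 3.63e-05). Like *Tek*, it was higher in the LGK974 than in the endotoxemic group (log2 1.3, SE 0.31, adjusted p = 0.0437) and lower than in the control group (−2.24, SE 0.29, adjusted p = 0.000421). In the list as a whole, 3 of 9 were called higher and 0 lower between the LGK974 and endotoxemic groups, against 2.80% and 2.82% of all rows. The *Ptprb* call in that comparison lay near the threshold of 0.05. Whether the calls of list genes hold in the other settings was not tested.

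The VEGF list holds ligands, receptors, co-receptors and genes that act with them. Of its 14 tested genes, 1 was called higher and 5 lower in the endotoxemic than in the control group (median −0.59). The shares of all rows were 20.4% higher and 23.0% lower. The co-receptor *Nrp1* fell from 1159 and 1846 counts to 233 and 359 (log2 −1.84, SE 0.28, adjusted p = 0.000755), and its relative *Nrp2* rose from 102 and 149 to 225 and 278 (log2 1.49, SE 0.24, adjusted p = 0.00118). *Vegfa*, the main ligand of Kdr, was lowest in the LGK974 libraries. It had 808 and 910 counts with saline, 518 and 471 with LPS alone and 255 and 299 with LGK974, with a log2 fold change of −1.43 (SE 0.21, adjusted p = 0.00801) against the endotoxemic group and −1.77 (SE 0.21, adjusted p = 0.000245) against the control group. It was the only gene of this list called between the LGK974 and endotoxemic groups, where 5.62% of all rows were called.

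In the nitric oxide list, 4 of 17 tested genes were called higher and 7 lower in the endotoxemic than in the control group (median −0.95). The shares of all rows were 20.4% higher and 23.0% lower. *Ddah1*, which degrades an endogenous inhibitor of nitric oxide synthases, fell from 2588 and 4052 counts to 211 and 271 (log2 −3.28, SE 0.37, adjusted p = 0.000129). *Cav1*, the caveolar protein that binds and inhibits Nos3, had 13 and 35 counts with saline and 0 and 2 with LPS alone. It passed the filter on low counts only through its control libraries, so its call in this list is not read as support for a fall. *Slc7a1*, which imports arginine, rose from 10 and 20 counts to 120 and 137 (log2 3.6, SE 0.48, adjusted p = 0.000382). For LGK974 against LPS alone, 1 of the 17 was called higher and 0 lower, against 2.80% and 2.82% of all rows.

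In the list of endothelial junction genes, 6 of 15 were called higher and 1 lower in the endotoxemic than in the control group. Of all rows, 20.4% were called higher and 23.0% lower. The other 8 genes of the list were not called, and the list median of 0.16 was near that of all rows. *Rasip1*, a regulator of endothelial adhesion and lumen formation, rose from 171 and 237 counts to 835 and 660 (log2 2.36, SE 0.23, adjusted p = 5.92e-05). *Cdh5*, VE-cadherin, had 124 and 237 counts with saline, 420 and 451 with LPS alone and 627 and 945 with LGK974, a log2 fold change of 2.04 (SE 0.24, adjusted p = 0.000259) for the LGK974 against the control group. For LGK974 against LPS alone, 0 of 15 were called in either direction, against 2.80% higher and 2.82% lower among all rows.

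In the list of leukocyte adhesion and its ligands, 18 genes were tested. Between the endotoxemic and control groups, 9 were called higher and 2 lower (median 1.29), against 20.4% and 23.0% of all rows. Many genes of this list are expressed by leukocytes. *Ezr*, which encodes ezrin, a linker between membrane proteins and actin, rose from 76 and 126 counts to 594 and 571 (log2 3.03, SE 0.22, adjusted p = 1.25e-05) and had 396 and 528 counts in the LGK974 libraries. All 8 neutrophil markers were called higher in the same comparison. Their summed level was 24.3 and 17.1 CPM with saline, 3486 and 4797 CPM with LPS alone and 2923 and 2961 CPM with LGK974, most of it from *Lcn2*, which hepatocytes also make in the acute phase. The other 7 summed to 4.08 and 3.27 CPM, then 115 and 120 CPM, then 83.3 and 77.9 CPM in the same order. Their part in this list and in the lists that follow was not tested.

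In the hemostasis list, 9 of 16 tested genes were called higher and 1 lower in the endotoxemic than in the control group (median 0.83). The shares of all rows were 20.4% higher and 23.0% lower. *Plaur*, the urokinase receptor, rose from 0 and 4 counts to 169 and 94 (adjusted p = 8.17e-05) and had 123 and 125 counts in the LGK974 libraries. Summed platelet markers were 3.9 and 3.6 CPM with saline, 10.8 and 11.2 CPM with LPS alone and 5.51 and 6.5 CPM with LGK974. Without *Itga2b*, the most abundant, they were 0.743 and 0.784 CPM, then 7.31 and 7.25 CPM, then 3.4 and 4.87 CPM in the same order. Of the 9 platelet markers, 3 had at most 3 counts in every library, among them *Gp6* and *Tubb1*.

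Of 30 NF-κB target genes listed, only 12 had rows in place and 10 were tested. In the endotoxemic group, 9 of these 10 were called higher than in the control group and 0 lower (median 2.37). Of all rows, 20.4% were called higher and 23.0% lower. Against LPS alone, the LGK974 group had 4 genes called lower and 0 called higher (median −1.02), against 2.82% and 2.80% of all rows. Markers of Kupffer cells and macrophages summed to 247.3 and 254.6 CPM with saline, 241.4 and 246.5 CPM with LPS alone and 151.9 and 188.1 CPM with LGK974, and without *Marco* to 240.4 and 248.3 CPM, then 144.8 and 172 CPM, then 91.04 and 90.88 CPM. Of 9 tested, 1 was called lower and 0 higher in the LGK974 than in the endotoxemic group, and their part in this list was not tested. *Irf1*, a transcription factor induced by cytokines, had 408 and 398 counts with saline, 3659 and 1999 with LPS alone and 877 and 827 with LGK974, with log2 fold changes of 3.26 (SE 0.33, adjusted p = 7.62e-05) for the endotoxemic against the control group and −2.33 (SE 0.32, adjusted p = 0.00668) for the LGK974 against the endotoxemic group. *Tnfaip2*, which is induced by tumor necrosis factor in endothelial cells, was lower in the LGK974 than in the endotoxemic group (log2 −1.71, SE 0.2, adjusted p = 0.00305).

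**Figure D5:**
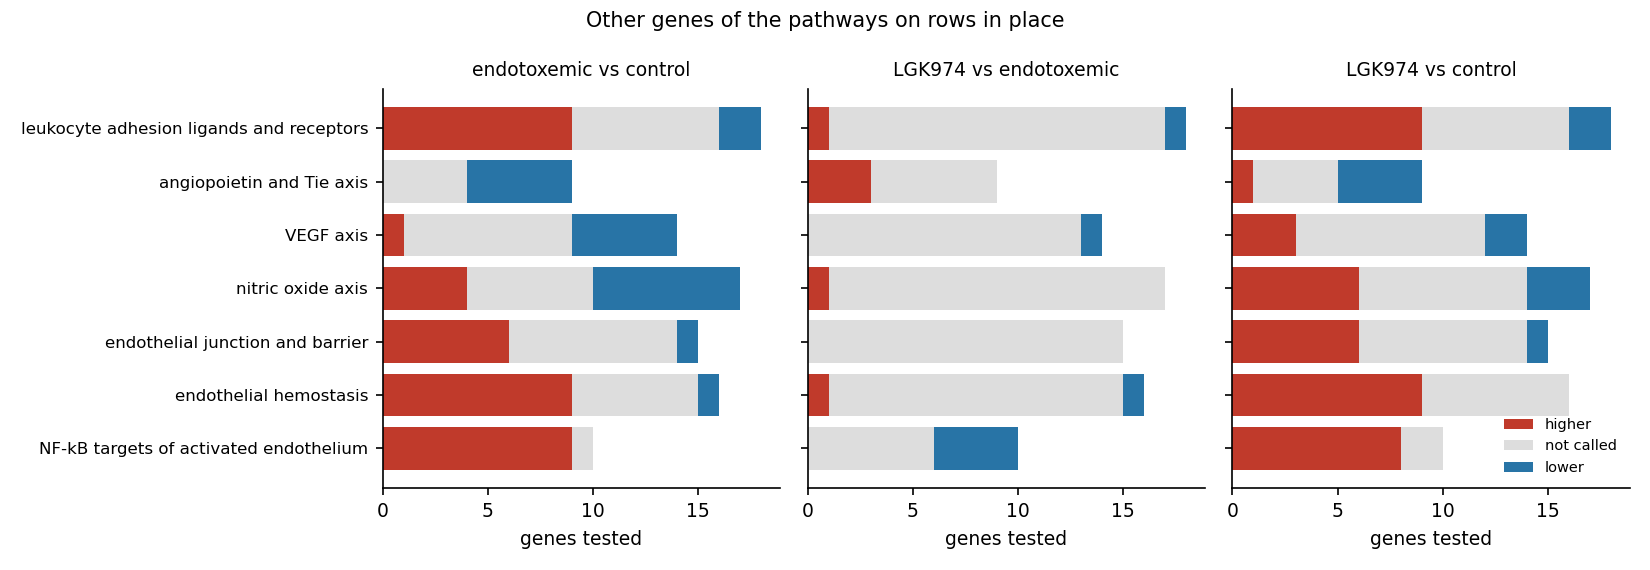
The number of tested genes called higher (red), not called (gray) and called lower (blue) in each pathway list for the 3 comparisons. The lists leave out the members. The angiopoietin-Tie list, without *Angpt2* and *Tek*, had 0 genes higher and 5 lower, and the NF-κB target list 9 higher and 0 lower, in the endotoxemic against the control group. Of all rows, 20.4% were called higher and 23.0% lower in that comparison.

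The endothelial marker genes moved in both directions. Their summed level was 319.3 and 305 CPM with saline, 285.6 and 295.7 CPM with LPS alone and 235.7 and 384.5 CPM with LGK974. Without the 2 most abundant, *Eng* and *Esam*, the sum was 193.7 and 203.1 CPM with saline, 133.7 and 154.7 CPM with LPS alone and 143.3 and 211.5 CPM with LGK974, so the full sum does not show that endothelial RNA stayed level. Of 15 tested markers, 4 were called higher and 3 lower in the endotoxemic than in the control group, with a median log2 fold change of −0.53. Both counts were near the shares of all rows, which were 20.4% higher and 23.0% lower. *Esam*, an endothelial junction molecule, rose from 216 and 278 counts to 785 and 784 (log2 2.15, SE 0.23, adjusted p = 0.0001), and *Sox17*, a transcription factor of arterial endothelium, fell from 34 and 29 counts to 2 and 2 (log2 −3.48, SE 0.78, adjusted p = 0.00633). None of the 10 members belongs to that list. Expressed as a percentage of its sum, *Kdr* stood at 20.3% and 21.2% with saline, 0.306% and 0.757% with LPS alone and 1.25% and 4.07% with LGK974. *Angpt2* stood at 0.203% and 0.129%, then 7.18% and 4.65%, then 5.93% and 3.71% in the same order. Both changes were thus also present relative to the sum of these markers.

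The markers of liver sinusoidal endothelial cells were mixed. Of 11 tested, 1 was called higher and 6 lower with LPS alone than with saline (median −1.13), against 20.4% and 23.0% of all rows. The rise was that of *Lyve1*, the hyaluronan receptor, from 533 and 546 counts to 3298 and 3153 (log2 3.03, SE 0.24, adjusted p = 1.81e-05). *Clec4g*, a sinusoidal lectin, fell from 777 and 1281 counts to 55 and 74 (log2 −3.49, SE 0.34, adjusted p = 5.31e-05) and was lower again in the LGK974 libraries, with 29 and 13 counts (log2 −2.19 against the endotoxemic group, SE 0.38, adjusted p = 0.0163). Of 12 stellate cell markers tested, 1 was called higher and 7 lower with LPS alone than with saline (median −1.76), against the same shares. Their sum was 537.4 and 553.2 CPM with saline, 640.5 and 595.8 CPM with LPS alone and 527 and 625.2 CPM with LGK974, mostly that of *Dcn*, decorin. Without *Dcn* it was 198.3 and 195.5 CPM with saline, 91.8 and 90.9 CPM with LPS alone and 108.2 and 116.4 CPM with LGK974. The sinusoidal markers summed to 375.4 and 365.9 CPM, then 479 and 455.1 CPM, then 521.8 and 637.9 CPM in the same order, and without *Lyve1* to 326 and 330.2 CPM, then 119.2 and 119.1 CPM, then 122.7 and 139.4 CPM. The part of these changes in those of the members was not tested.

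The genes closest in pattern to 3 of the members were found by the Euclidean distance between log2(CPM + 0.5) profiles, each centred on its mean over the 6 libraries, among 12041 rows. For *Tek* these were *Bhmt2* (distance 0.3), *Kank2* (0.39) and *Agfg2* (0.46). *Tek* had 0 counts with LPS alone, so the added 0.5 CPM set its level there. The distances therefore do not compare the depth of its fall. *Bhmt2* had 1227 and 1742 counts with saline, 101 and 94 with LPS alone and 281 and 575 with LGK974. For *Kdr* they were *Klf12* (0.47), *Rilp* (0.73) and *Slc40a1* (0.86). *Slc40a1*, the iron exporter ferroportin, had 1054 and 1627, 22 and 27, and 44 and 242 counts in the same order, so that LGK974 replicate 2 exceeded replicate 1 as it did in *Kdr*. For *Angpt2* they were *S100a11* (0.37), *Cfap69* (0.54) and *Camp* (0.6), the last an antimicrobial peptide of neutrophil granules, with 0 counts in both saline libraries, 85 and 69 with LPS alone and 136 and 109 with LGK974. The saline levels of *Angpt2* (mean 0.521 CPM), *Cfap69* (0 counts) and *Camp* also rest on the added 0.5 CPM, and so do the sizes of their rises here.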

How the data were processed

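The authors sequenced liver RNA by the QuantSeq 3′-end method, and the deposited values are the count of reads on each row, as whole numbers without normalization. The submitters' processing notes name Bowtie2, edgeR and mm10 without versions, and whether counting used strand is not given in the sources used here. Row order was compared with RefSeq positions on GRCm38.p6. A row was in place when, on each side, at least 1 of the 2 nearest rows with a position lay on its chromosome within 2 Mb. Genes of the lists also had to stand in the longest genomic order, a condition added after the data were seen that removed *Pf4*. Gene coordinates are from the GENCODE annotation of GRCm38. The members and the gene lists were chosen with earlier results of these data known.

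The test was the quasi-likelihood F test of edgeR 4.0.16 (R 4.3.3), in 1 model of the 3 groups over the 6 distinct libraries, after filterByExpr by group and TMM scaling. P-values were adjusted by the Benjamini-Hochberg method over 12701 rows at a threshold of 0.05, and scripts were tested on simulated data. The SE was derived from the F statistic. All members are described. List genes are named from the 2 that rose most and the 2 that fell most in a list and comparison, if called and with no overlap between groups. The nearest patterns are given for the 3 members that changed most. Marker sums without their most abundant genes were added after the data were seen. A floor of 3 counts covers counting error only. Alternatives were DESeq2 1.42.0, limma-voom (limma 3.58.1), other filters, library totals, a replicate block, each comparison alone, the 4 endotoxemic libraries as separate samples, and leaving out each library.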

Additional observations from a re-analysis of the deposited data

How the results depend on the processing

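The number of members called between the endotoxemic and control groups was 4, where 43.4% of all rows were called. It was 1 with at least 10 counts required in every library (44.3% of rows), a filter that *Angpt2*, *Tek*, *Kdr* and *Vwf* fail. Leaving out each library gave 3 to 4 (25.8% to 51.4% of rows). Between the LGK974 and endotoxemic groups, 1 was called (5.62% of rows). No filter and the 4 endotoxemic libraries as separate samples each gave 2, where 9.88% and 26.0% of all rows were called. At least 10 counts, limma-voom, the 2 groups alone and the replicate block each gave 0, where 6.41%, 5.42%, 2.26% and 5.39% of all rows were called. *Tek* was not tested with at least 10 counts or with the 2 groups alone. The share of all rows called moved widely with the library left out. Without 1 library, the log2 fold change in this comparison ranged from 5.83 to 7.34 for *Tek*. It ranged from 0.91 to 3.41 for *Kdr* and from 0.31 to 1.41 for *Nos3*. Between the LGK974 and control groups, 4 were called (34.1% of rows). At least 10 counts gave 1 (34.7%), and leaving out each library gave 2 to 5 (17.8% to 41.1%).

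Libraries of the same number in different groups are not described as paired, and with 2 pairs the correlation of their deviations was 0.14, 0.0605 and −0.00749 in the 3 comparisons. The replicate block moved the calls over all rows between the LGK974 and endotoxemic groups from 356 higher and 358 lower to 330 and 355. Directions turned only where no call had been made. Without 1 library, the log2 fold change of *Vwf* ranged from −0.66 to 0.29 (endotoxemic against control), −2.3 to 0.39 (LGK974 against endotoxemic) and −2.58 to 0.11 (LGK974 against control). That of *Angpt2* ranged from −0.54 to 0.01 (LGK974 against endotoxemic) and that of *Pecam1* from −0.46 to 0.64 (LGK974 against control). The cause was not tested. *Angpt2*, *Tek* and *Kdr* kept their direction and call in the endotoxemic against the control group under every setting in which they were tested. Counts were low for *Vwf* and *Tek* in every library and for *Angpt2* with saline.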
